A study of Mus musculus with 6 samples.

Results

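The subunits of polycomb repressive complex 2 (PRC2) were followed as a group of 10 genes, out of 32371 in the count table. They were Ezh2, Ezh1, Suz12, Eed, Rbbp4 and Rbbp7, which make up the core, and Jarid2, Aebp2, Mtf2 and Phf19, which are accessory proteins. The genes were taken by symbol, and all 10 matched 1 Ensembl identifier each and passed the filter on low counts. The data were read counts from 6 RNA-Seq libraries of adult C57BL/6J mouse retina, 3 from eyes given AAV2-GFP and 3 from eyes given AAV2-Ezh2-Y726D, a form of Ezh2 without methyltransferase activity. In both groups the vector was injected into the vitreous, the optic nerve was crushed 2 weeks later, and cells carrying CD90.2, the product of Thy1, were sorted 3 days after the crush. The labels call the cells retinal ganglion cells (RGCs). AAV2 also reaches other retinal cells, and pooling of animals within a library is not described in the sources used here. Nothing in them says that the libraries came from separate animals, so the P values measure only the spread between these libraries, which may be technical.

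PRC2 places methyl groups on lysine 27 of histone H3, a mark of silenced genes. Ezh2 and Ezh1 are alternative catalytic subunits. Suz12 is the scaffold, Eed binds the finished mark and stimulates the enzyme, and Rbbp4 and Rbbp7 are closely related histone chaperones that also serve in other chromatin complexes. The core joins either a polycomb-like protein such as Mtf2 or Phf19, giving PRC2.1, or Jarid2 and Aebp2, giving PRC2.2, and the accessory proteins help direct the complex to chromatin. Ezh2 is typical of dividing and immature cells, whereas Ezh1 is kept in mature cells such as neurons.

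The residue changed in the vector lies near the carboxyl end of Ezh2. The coding sequence around it was read from the GENCODE transcript Ezh2-201, with the codon of the changed tyrosine in capitals, and is shown beside the aligned stretch of Ezh1-203, since these paralogues compete for the same place in the complex.
Ezh2-201 (746 codons): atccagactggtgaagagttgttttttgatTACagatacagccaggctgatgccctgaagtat
Ezh1-203 (750 codons): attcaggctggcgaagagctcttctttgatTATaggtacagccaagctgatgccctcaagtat
On GRCm38 the Ezh2 codon is at chr6:47531743-47531745 on the minus strand, in exon 19 of 20 of that transcript, and the Ezh1 codon is at chr11:101193221-101193223 on the minus strand, in exon 20 of 21. Both genes have a tyrosine codon there. Each stretch is spliced across the junction to the last exon, chr6:47530574-47531775 for Ezh2 and chr11:101192972-101193253 for Ezh1. Of the 63 bases shown, 53 were identical, and over the whole proteins 68.0% of 724 aligned residues were. No stretch of 50 bases was shared between annotated Ezh1 and Ezh2 transcripts, so that reads of that length would tell the paralogues apart. They would not tell the vector from the endogenous Ezh2 gene in a count per gene, so the Ezh2 values of the Ezh2-Y726D libraries contain both, while the GFP libraries received no Ezh2 vector.

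Total counts ran from 9333244 to 23782520 per library. The rRNA gene CT010467.1 took 2.55% to 52.2% of them, most in GFP replicates 2 and 3, which kept 5745352 and 4460732 counts without it. The counts were scaled with TMM, edgeR's method for making libraries comparable, and levels are given as CPM, counts brought to a common library total. In edgeR's quasi-likelihood test, 27.5% of 18138 genes tested differed between the groups at an adjusted P under 0.05, with 13.9% higher and 13.6% lower after Ezh2-Y726D overexpression. The sorted cells were not only RGCs by their markers. Per kb of exon, the 10 RGC markers ran from 0.55 CPM for Pou4f2 to 42.8 CPM for Nefl in the GFP libraries, with the sorted marker Thy1 at 35.2 CPM, and the 7 Müller glia markers ran from 15.3 CPM for Kcnj10 to 895 CPM for Glul. In such bulk libraries fewer cells of a type and less RNA per cell cannot be told apart.

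Only Ezh2 rose among the 10 members and only Eed fell, in edgeR's test. The other 8 did not pass the threshold. This is 2 of 10 genes, beside the 27.5% of all genes that were called. At a fold change over 1.5, the additional criterion of the study, Ezh2 alone was left, beside 8.02% of all genes (2.52% higher and 5.5% lower). The libraries of the groups did not overlap in 3 members that were higher and 4 that were lower, beside 19.7% and 18.9% of all genes in those directions. The median log2 fold change of the 9 members other than Ezh2 was -0.03, and that of all genes tested was 0.00186. Those 9 lay between -0.23 and 0.07, and the middle 50% of all genes lay between -0.15 and 0.15.

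**Figure D1:**
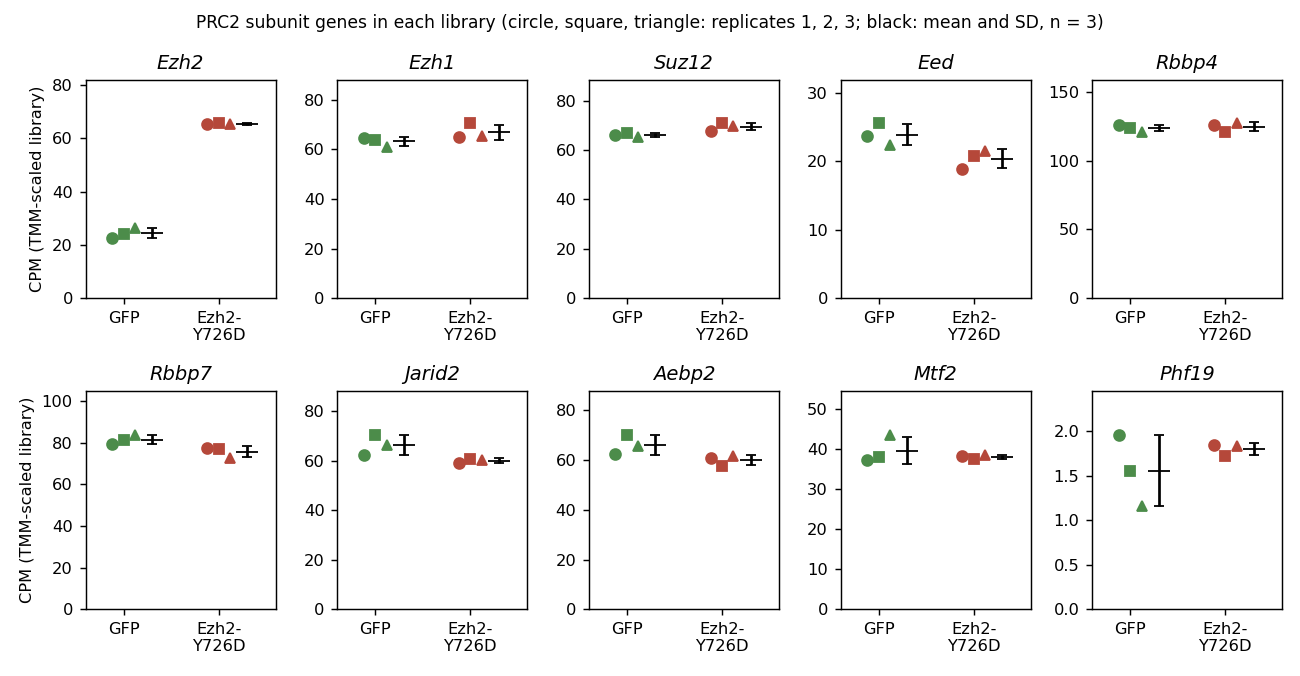
TMM-scaled CPM of each PRC2 member (vertical axes from 0) in the 3 GFP and 3 Ezh2-Y726D libraries, 1 point per library, with the mean and SD of each group in black. Ezh2 goes from 24.3 to 65.3 CPM on average, and no other member shifts by a comparable amount.

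The catalytic subunits were examined first, since Ezh2 is the gene the vector carries. Ezh2 (ENSMUSG00000029687, chromosome 6, 47530139 to 47595341) had levels of 22.7, 23.9 and 26.4 CPM in GFP replicates 1, 2 and 3, against 65.2, 65.6 and 65.2 CPM in the same order with Ezh2-Y726D. The groups were far apart, and the 3 vector libraries were nearly equal. Ezh2 was 2.76-fold higher (95% confidence interval 2.53 to 3.01), or 1.46 ± 0.061 (SE) on the log2 scale, in edgeR's quasi-likelihood test (Benjamini-Hochberg adjusted P = 3.01e-16). Its raw counts were 647, 185 and 159 in the GFP libraries, which shows the smaller depth of GFP replicates 2 and 3.

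Ezh1 (ENSMUSG00000006920, chromosome 11, 101191115 to 101226463) had levels of 64.8, 63.8 and 61.0 CPM with GFP, against 65.1, 70.5 and 65.4 CPM with Ezh2-Y726D. The vector libraries lay just above the control libraries without overlap; 38.6% of all genes were separated in one direction or the other. The log2 fold change of 0.07 (95% confidence interval -0.03 to 0.18, edgeR adjusted P = 0.345) did not pass, and it was 0.0343 without Ezh2-Y726D replicate 2, the highest library. The ends of this interval, 0.977-fold and 1.13-fold, hold for this fit alone. On the log2 scale DESeq2 gave 0.0775 ± 0.0658 (SE), and counts thinned to the smallest library gave 0.118 ± 0.0685 (SE).

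The balance between the catalytic subunits was followed as a ratio of counts per kb of exon within each library, which does not depend on the scaling between libraries. The ratio of Ezh2 to Ezh1 was 0.390, 0.416 and 0.481 in the GFP libraries and 1.12, 1.04 and 1.11 in the Ezh2-Y726D libraries. Ezh1 was the more abundant transcript in every control library, and the order was turned in every vector library. Of the reads per kb from both genes, Ezh2 held 30.0% ± 2.27 in GFP and 52.1% ± 1.05 after Ezh2-Y726D (SD, n = 3 libraries each). With the length of the longest transcript instead of all exons, these shares were 36.7% ± 2.51 and 59.6% ± 1.01, so the turn was seen with both lengths. Without length scaling, Ezh2 stayed just under Ezh1 on average in the vector libraries, with a ratio of 0.976 ± 0.0404 against 0.385 ± 0.0422 in GFP. The length of the vector's insert is not given in the sources used here, and the lengths are those of the mouse gene. The ratios are given as values without a test. The smallest P of an exact permutation test of 3 libraries against 3 is 0.1.

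Suz12, the scaffold with which every catalytic subunit must pair, stayed close to its control level. Suz12 (ENSMUSG00000017548, chromosome 11, 79993106 to 80034123) had levels of 66.2, 66.9 and 65.2 CPM with GFP, against 67.9, 70.8 and 69.9 CPM with Ezh2-Y726D. The groups did not overlap, and the difference was small, with a log2 fold change of 0.07 (95% confidence interval -0.03 to 0.17, edgeR adjusted P = 0.317). Per kb of exon, the ratio of Ezh2 to Suz12 transcripts went from 0.272 ± 0.0241 to 0.696 ± 0.0137. The ratio of Ezh1 to Suz12 was 0.636 ± 0.0142 in GFP and 0.641 ± 0.0205 after Ezh2-Y726D, and its groups overlapped. Both catalytic transcripts together went from 0.908 ± 0.0125 to 1.34 ± 0.0211 per Suz12 transcript (SD, n = 3 libraries each). The size of these ratios depends on the length used. With the longest transcript, Ezh2 to Suz12 was 0.577 ± 0.051 and 1.48 ± 0.0291 and both catalytic transcripts to Suz12 were 1.57 ± 0.032 and 2.48 ± 0.0365, above 1 in both groups for the latter.

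Eed, the reader of the methyl mark, was the lone member called lower. Eed (ENSMUSG00000030619, chromosome 7, 89954654 to 89980983) had levels of 23.7, 25.5 and 22.4 CPM with GFP, against 18.8, 20.8 and 21.5 CPM with Ezh2-Y726D. The highest vector library lay 1 CPM or less under the lowest control library. The log2 fold change was -0.23 (95% confidence interval -0.38 to -0.08, edgeR adjusted P = 0.0198), a level 0.853-fold that of GFP. DESeq2 gave nearly the same log2 fold change of -0.23 with an adjusted P of 0.129, and the call was also lost when GFP replicate 1, GFP replicate 2 or Ezh2-Y726D replicate 1 was left out (edgeR adjusted P = 0.0795, 0.0842 and 0.103). With library totals in place of TMM its sign turned (0.27, not called), while it stayed at -0.22 relative to the median of all genes, which moved to 0.49. Per Suz12 transcript, Eed was at 0.462, 0.493 and 0.444 in GFP and at 0.357, 0.380 and 0.397 after Ezh2-Y726D. Of its exonic bases, 6.82% overlap E230029C05Rik on the other strand, which stood at 3.33 CPM with GFP and 3.62 CPM with Ezh2-Y726D.

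**Figure D2:**
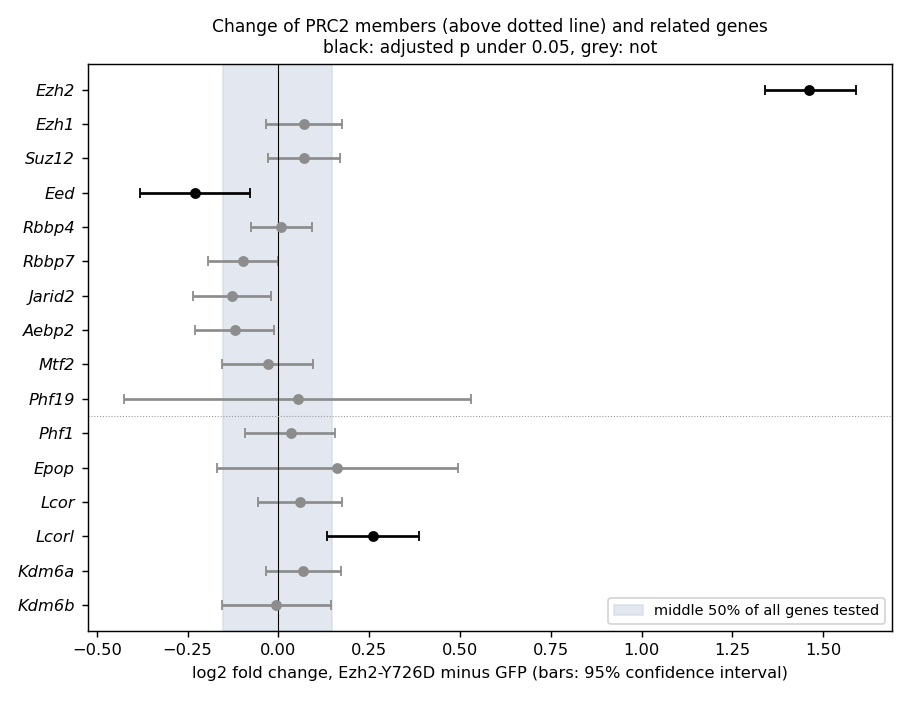
Log2 fold change (Ezh2-Y726D minus GFP, horizontal axis) with its 95% confidence interval for the 10 members and for 6 other genes around PRC2, beside the band that holds the middle 50% of all genes tested. Ezh2 stands at 1.46, Eed at -0.23 and Lcorl at 0.26, and the grey genes did not pass an adjusted P of 0.05.

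The histone chaperones Rbbp4 and Rbbp7 encode proteins that were identical in 89.6% of 424 aligned residues. Rbbp4 (ENSMUSG00000057236, chromosome 4, 129307100 to 129335370) was at 121 to 126 CPM in GFP and at 121 to 127 CPM after Ezh2-Y726D. Its log2 fold change of 0.01 (95% confidence interval -0.08 to 0.09, edgeR adjusted P = 0.923) was the smallest of the group. Its sign turned with library totals without the rRNA gene and without GFP replicate 3 or Ezh2-Y726D replicate 3.

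Rbbp7 (ENSMUSG00000031353, chromosome X, 162760402 to 162779092) had levels of 79.3, 81.4 and 83.8 CPM with GFP, against 77.5, 76.9 and 72.8 CPM with Ezh2-Y726D. Every vector library was under every control library, but the log2 fold change of -0.10 ± 0.047 (SE; edgeR adjusted P = 0.136) did not pass. The ratio of Rbbp4 to Rbbp7 per kb was 0.505 ± 0.0247 and 0.548 ± 0.0305, with overlapping groups. It was 0.730 and 0.792 with the longest transcripts and 1.52 and 1.65 without length scaling, which turns the order of the pair. Rbbp4 shares 18.05% of its exonic bases with Sync, at 0.636 CPM in GFP, and Gm26722, with at most 6 counts in a library, on the other strand, and 11.21% of the 50-base stretches of Rbbp7 recur in Txlng or Gm6382.

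The accessory genes of PRC2.2 did not pass edgeR's test. Their levels were lower in every vector library than in any control, as were those of Eed, Rbbp7 and 18.9% of all genes tested. Jarid2 (ENSMUSG00000038518, chromosome 13, 44729474 to 44921643), which recruits the complex to chromatin and resembles a histone demethylase without being an active one, had levels of 62.3, 70.4 and 66.3 CPM with GFP, against 58.9, 60.8 and 60.2 CPM with Ezh2-Y726D. Aebp2 (ENSMUSG00000030232, chromosome 6, 140622663 to 140678472), a zinc finger protein that stabilises the complex, had levels of 62.3, 70.2 and 65.8 CPM with GFP, against 60.8, 57.7 and 61.5 CPM with Ezh2-Y726D. In both genes every vector library was under every control library, with GFP replicate 1 the nearest of the controls.

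The log2 fold change of Jarid2 was -0.13 (95% confidence interval -0.24 to -0.02, edgeR adjusted P = 0.0688) and that of Aebp2 was -0.12 (95% confidence interval -0.23 to -0.01, edgeR adjusted P = 0.0973). Neither passed the threshold over all genes in this fit. With the replicate number as a block, Jarid2 passed (log2 fold change -0.135, edgeR adjusted P = 0.0287) and Aebp2 did not (edgeR adjusted P = 0.0667). Without GFP replicate 1 they were -0.195 and -0.183 and passed (edgeR adjusted P = 0.0191 and 0.0332), and without GFP replicate 2 they were -0.0854 and -0.0772 and did not (edgeR adjusted P = 0.287 and 0.358). With library totals without the rRNA gene Jarid2 was at -0.148 and passed (edgeR adjusted P = 0.0337). In counts thinned to the smallest library Jarid2 and Aebp2 were at -0.0513 and -0.0933 (edgeR adjusted P = 0.676 and 0.412). The ratio of Jarid2 to Aebp2 per kb of exon was 1.02 ± 0.00383 in GFP and 1.01 ± 0.0467 after Ezh2-Y726D, and with the longest transcripts it was 0.713 ± 0.00268 and 0.710 ± 0.0327.

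The polycomb-like proteins of PRC2.1 were at very different levels. Mtf2 (ENSMUSG00000029267, chromosome 5, 108065674 to 108109004), which binds unmethylated CpG-rich DNA, had levels of 37.3, 37.9 and 43.5 CPM with GFP, against 38.1, 37.4 and 38.4 CPM with Ezh2-Y726D. The groups overlapped, and GFP replicate 3 was the highest of the 6 libraries. The log2 fold change was -0.03 (95% confidence interval -0.16 to 0.10, edgeR adjusted P = 0.781), and 0.02 without GFP replicate 3. Tmed5, which overlaps 6.93% of the exonic bases of Mtf2 from the other strand, was itself lower (log2 fold change -0.29, edgeR adjusted P = 0.00871).

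Phf19 (ENSMUSG00000026873, chromosome 2, 34893757 to 34914026), a polycomb-like protein that binds histone H3 methylated at lysine 36, was barely expressed. It held 56, 12 and 7 counts in GFP replicates 1, 2 and 3 and 49, 35 and 54 counts after Ezh2-Y726D. The 7 counts of GFP replicate 3 have an exact Poisson 95% interval of 2.81 to 14.4 counts, which covers counting error only. At 1.56 ± 0.402 and 1.80 ± 0.0699 CPM (SD, n = 3 libraries each) no difference was detectable at this depth, and the interval of the log2 fold change, -0.43 to 0.53, was the widest of the 10. Per kb of exon, Phf19 was at the 7.36th percentile of the genes tested, and its transcript stood at 0.0453 ± 0.0147 of that of Mtf2 in GFP.

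The accessory subunits of PRC2.1 were then set against those of PRC2.2. The ratio of Mtf2 plus Phf19 to Jarid2 plus Aebp2, per kb of exon, was 0.544, 0.484 and 0.581 in the GFP libraries and 0.576, 0.570 and 0.571 in the Ezh2-Y726D libraries. The vector libraries lay within the range of the controls, so any shift between these accessory transcripts was within the spread of the controls. Without length scaling the ratio was 0.311 ± 0.0286 in GFP and 0.331 ± 0.00163 after Ezh2-Y726D. Phf1, a further PRC2.1 gene with more counts per kb than Mtf2 (8.83 against 6.94 CPM per kb in GFP), is not part of the sum. The size of the ratio depends on which members are summed, so it does not show which form of the complex prevails. Mtf2 and Jarid2 alone gave a ratio of 1.02 ± 0.0994 in GFP and 1.08 ± 0.0263 after Ezh2-Y726D (SD, n = 3 libraries each), again with overlap. The groups did not overlap in the level of the accessory transcripts relative to Suz12. Suz12 itself was slightly higher in every vector library (log2 fold change 0.07, not called), which lowers each of these ratios. None of the 4 accessory genes was called by itself, and the share of other gene pairs separated in this way was not computed. All 4 together were at 1.47, 1.58 and 1.62 in GFP and at 1.41, 1.33 and 1.38 after Ezh2-Y726D. Jarid2 per Suz12 went from 0.511 ± 0.0289 to 0.439 ± 0.00254 and Aebp2 per Suz12 from 0.502 ± 0.0272 to 0.434 ± 0.0214, without overlap. The ratio of Mtf2 to Suz12 was 0.489 to 0.579 in GFP and 0.459 to 0.487 after Ezh2-Y726D, with the groups nearly touching.

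**Figure D3:**
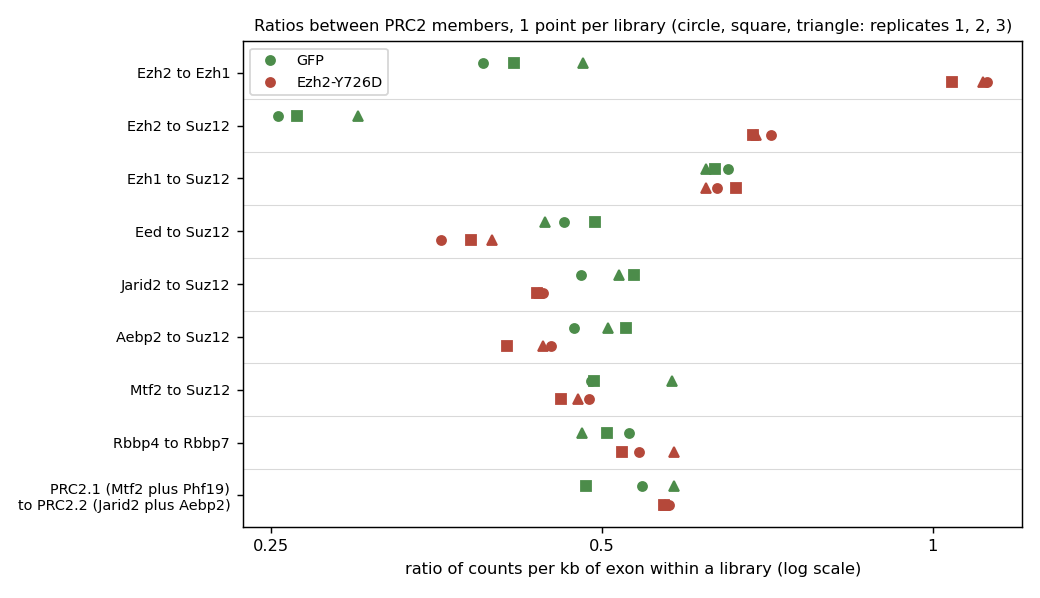
Ratios of counts per kb of exon between PRC2 members (horizontal axis, log scale), 1 point per library, GFP in green and Ezh2-Y726D in red. The ratio of Ezh2 to Ezh1 moves from 0.390 to 0.481 up to 1.04 to 1.12, and the red points of the PRC2.1 to PRC2.2 ratio fall within the range of the green ones.

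The members were also ordered by transcript level per kb of exon, which does not give the amount of each protein in the complex. After Ezh2-Y726D the Ezh2 level includes the vector. In GFP, Rbbp7 led with 28.0 ± 0.77 CPM per kb, followed by Rbbp4 with 14.1 ± 0.305, Suz12 with 13.4 ± 0.179 and Ezh1 with 8.50 ± 0.265 (SD, n = 3 libraries each). Mtf2, Jarid2 and Aebp2 came next with 6.94, 6.83 and 6.71 CPM per kb, and their libraries overlapped, as did those of Aebp2 and Eed, at 6.24 ± 0.414. Ezh2 was in place 9 of 10 with 3.64 ± 0.281 CPM per kb, and Phf19 was last with 0.309 ± 0.0797. After Ezh2-Y726D, Ezh2 was in place 4 with 9.78 ± 0.0319 CPM per kb, above Ezh1 with 9.01 ± 0.411, and the libraries of these paralogues did not overlap. With the length of the longest transcript, Ezh2 went from place 8 to place 3, and in both groups Rbbp7 and Rbbp4 were at the top and Phf19 at the bottom with both lengths. In GFP, Suz12 and Ezh1 were in places 3 and 4 with both lengths. Lower places depended on the length used, and Jarid2 was in place 6 with all exons and in place 9 with the longest transcript in GFP.

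Other genes of the polycomb system were counted from lists. Among other PRC2 accessory proteins, Phf1, a polycomb-like protein like Mtf2, stood at 30.8 ± 1.24 CPM with GFP and 32.0 ± 0.209 CPM with Ezh2-Y726D. Per kb of exon it was at 8.83 CPM in GFP, above Mtf2 and far above Phf19. Epop, an elongin-binding subunit of PRC2.1, was at 3.71 ± 0.997 and 4.63 ± 0.388 CPM, and Lcor, whose locus also encodes a PRC2.1 protein, at 47.4 ± 2.14 and 49.8 ± 1.64 CPM (SD, n = 3 libraries each). None of these passed edgeR's test. Lcorl, a paralogue of Lcor, rose from 35.9 ± 2.39 to 42.4 ± 1.99 CPM, 0.26 ± 0.062 (SE) on the log2 scale (edgeR adjusted P = 0.00175 with n = 3 libraries a group). Ezhip, an inhibitor of PRC2, was not analysed here. The H3K27 demethylases Kdm6a and Kdm6b, which remove the mark, had log2 fold changes of 0.07 and -0.01, and neither passed.

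PRC1 adds ubiquitin to histone H2A, and some of its forms bind the methylated histone. Of its 20 listed subunits, 2 were higher, 0 were lower and 18 did not pass in edgeR's test, and 5 had an unadjusted P under 0.05. Of all genes, 13.9% were higher, 13.6% were lower and 36.2% had such a P. The median log2 fold change of the list was -0.00207. Pcgf2, a ring finger subunit of PRC1, rose from 8.51 ± 1.11 to 11.6 ± 1.13 CPM, 0.44 ± 0.11 (SE) on the log2 scale (edgeR adjusted P = 0.00259 with n = 3 libraries a group). Yaf2, which belongs to variant forms of PRC1, had a log2 fold change of 0.19 (edgeR adjusted P = 0.0236).

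Rbbp4 and Rbbp7 also sit in the NuRD, SIN3 and CAF-1 complexes. Of 18 listed partners there, 3 were higher, 5 were lower and 10 did not pass in edgeR's test, with a median log2 fold change of -0.06, beside 13.9% higher and 13.6% lower over all genes. Chd3, a nucleosome remodeller of NuRD, rose from 202 ± 7.91 to 255 ± 6.35 CPM (log2 fold change 0.34, edgeR adjusted P = 1.66e-07 with n = 3 libraries a group), and Mta3 and Sin3b rose by less. Among the lower genes were Mta2, with a log2 fold change of -0.17, Chaf1a, a subunit of the replication-coupled chaperone CAF-1, with -0.35, and Gatad2a, with -0.16. The remaining lower genes were Sap30 and Chaf1b, with -0.36 and -0.72, and these were named after their values were seen.

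Markers of several cell types differed between the groups, and PRC2 genes are expressed in many cell types. The counts of called markers in each list stand beside 13.9% of all genes higher and 13.6% lower. Summed over each list, markers of activated phagocytes were at 805 to 902 CPM in GFP and 220 to 255 CPM after Ezh2-Y726D, and all 10 of them fell. The 10 microglia markers summed to 896 to 1010 and 573 to 676 CPM, and 7 fell and 1 rose. T cell markers, of which all 8 fell, summed to 130 to 132 and 74.6 to 81.8 CPM.

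Of the 23 genes of proliferating cells, 20 fell, 0 rose and 3 did not pass in edgeR's test (21 at an unadjusted P under 0.05), and their sum went from between 291 and 309 to between 191 and 201 CPM. Amacrine markers went the other way. Their sum was 990 to 1060 CPM in GFP and 1540 to 1600 CPM after Ezh2-Y726D, with 7 of 8 tested markers higher, while Chat was too low to be tested. All 6 cone markers fell (388 to 403 and 250 to 262 CPM), and of 6 bipolar cell markers 5 fell and 1 rose. RGC markers were at 472 to 483 and 450 to 486 CPM, with 2 of 10 higher and 1 lower, beside 13.9% higher and 13.6% lower over all genes. Müller glia markers were at 6940 to 7290 and 6900 to 7200 CPM, most of it from Glul and Dkk3, with 2 of 7 higher and 2 lower. Endothelial markers were lower in 2 of 6 (951 to 1010 and 896 to 960 CPM), pericyte markers lower in 4 of 5 (204 to 221 and 159 to 172 CPM) and B cell markers lower in 2 of 4 (3.98 to 5.16 and 2.07 to 3.38 CPM). Most of the endothelial sum came from Kdr, at 763 CPM in GFP, and Flt1, at 200 CPM, and the other 4 genes of that list were at 1.84 to 8.24 CPM. None of these markers was at 0 in all libraries. The part of these differences in the values of Eed, Jarid2, Aebp2 or any other member was not tested.

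**Figure D4:**
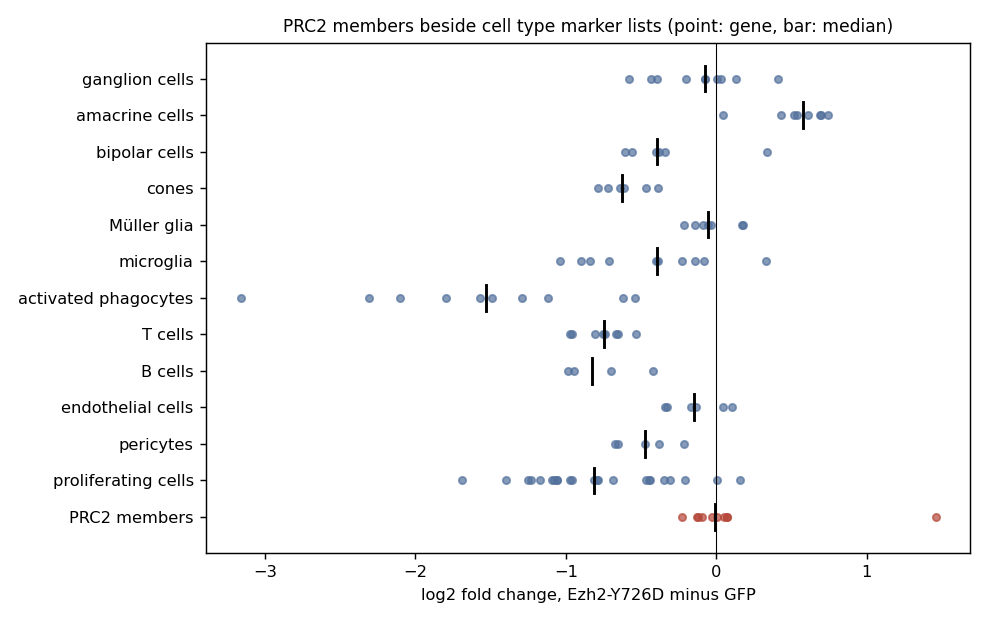
Log2 fold change (Ezh2-Y726D minus GFP, horizontal axis) of each gene of the cell type marker lists and of the PRC2 members, with the list median as a bar. The members other than Ezh2 cluster between -0.23 and 0.07, while phagocyte and proliferation markers have medians of -1.53 and -0.81 and amacrine markers one of 0.58.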

How the data were processed

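The data were 6 RNA-Seq libraries in 1 table, from stranded total RNA kits. The authors deposited whole-number read counts per Ensembl gene, without normalization. The submitters' processing notes name STAR 2.7.0d and GRCm38, and the counting tool, annotation and use of strand are not given in the sources used here. Symbols were found for 32325 of 32371 identifiers, and coordinates, exon lengths, overlaps and coding sequences came from GENCODE vM21 on GRCm38, which may not be the annotation the authors counted on.

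Counts were filtered with filterByExpr (at least 10 counts, 15 in total), scaled with TMM (factors 0.647 to 1.31) and tested with the quasi-likelihood test of edgeR 4.0.16 in R 4.3.3, with Benjamini-Hochberg adjustment over 18138 genes and no covariate. Standard errors are the log2 fold change over the square root of F. Depth limits precision most in GFP replicates 2 and 3, where Phf19 had 12 and 7 counts. The procedure was also run on counts simulated from the fitted means and dispersions of these same data. The planted changes were larger than those of the members other than Ezh2, so the run does not bear on such small changes. Levels per kb divide CPM by the union of annotated exons.

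The members and lists were chosen with earlier results of these data known. Named are the 10 members, the other PRC2 accessory proteins, Kdm6a, Kdm6b, and of each other pathway list the 3 called genes with the smallest adjusted P in each direction, and of the marker lists Thy1 and genes at 0 or at an extreme. Other marker genes and genes overlapping a member were named after their values were seen. Alternatives were RLE factors, library totals with and without the rRNA gene, DESeq2 1.42.0, other filters, a replicate block, thinned counts, each library left out, a fold change threshold and other lengths. Within groups, pairs of libraries differed by more than counting noise (chi-square per degree of freedom 1.49 to 3.03). Rod marker levels are not reported here.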

Additional observations from a re-analysis of the deposited data

How the results depend on the processing

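With library totals as the only scaling, all genes tested had a median log2 fold change of 0.49, and 46 genes were called higher and 19 lower instead of 2525 and 2463. Eed, Rbbp7, Jarid2, Aebp2 and Mtf2 then had log2 fold changes of 0.27, 0.41, 0.38, 0.39 and 0.47, none called, and relative to that median they were at -0.22, -0.08, -0.12, -0.11 and -0.03. Thinning every library to the smallest one left 1670 genes higher, and a fold change over 1.5 left 457 higher and 998 lower. Ezh2 stayed higher and called in every alternative fitted, with a log2 fold change of 1.39 to 1.5 when 1 library was left out. The count of members called lower was 0 with library totals, thinned counts, DESeq2 and a fold change over 1.5, 2 with library totals without the rRNA gene and with the replicate block, and 0 to 2 with 1 library left out. Eed was at -0.24 in thinned counts (edgeR adjusted P = 0.12) and -0.23 in DESeq2 (adjusted P = 0.129), and between -0.28 and -0.17 with 1 library left out. The cause was not tested. Rbbp4 was at -0.0108 with library totals without the rRNA gene and between -0.0073 and 0.0283 with 1 library left out. The corresponding ranges were -0.0909 to 0.0193 for Mtf2 and -0.0425 to 0.385 for Phf19, which could not be tested at a minimum of 10 counts in every library. The ratio of Ezh2 to Ezh1 per kb was 0.429 in GFP and 1.09 after Ezh2-Y726D, 0.582 and 1.47 with the longest transcript, and 0.976 after Ezh2-Y726D without length scaling. The ratio of PRC2.1 to PRC2.2 members was 0.537 and 0.572, and 0.311 and 0.331 without length scaling, and 0.568 after Ezh2-Y726D with the longest transcript. With 1 library left out, Ezh2 to Ezh1 was 0.403 to 0.449 in GFP and 1.07 to 1.11 after Ezh2-Y726D, and PRC2.1 to PRC2.2 was 0.514 to 0.563 and 0.571 to 0.573. Samples with the same replicate number deviated from their group means with correlations of 0.136, 0.051 and 0.0391 across genes. Samples with different numbers had correlations of -0.0793 to 0.0264, all below these. The main fit did not take the numbers as pairs, and the sources used here do not say whether they mark a shared origin. With the replicate block, Jarid2 also passed (log2 fold change -0.14, edgeR adjusted P = 0.0287), and no other call among the members changed.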

Other observations

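Other histone H3 lysine methyltransferases, which write marks at lysines other than 27, were measured in the same libraries. Of 17 genes, 2 were higher after Ezh2-Y726D, 0 were lower and 15 did not pass in edgeR's quasi-likelihood test, and the same 2 had an unadjusted P under 0.05. The shares over the whole table were 13.9% higher, 13.6% lower and 36.2% with such a P. Their median log2 fold change was 0.05 and their range -0.14 to 0.18. Ash1l, which methylates lysine 36, rose from 169 ± 5.84 to 191 ± 3.11 CPM (log2 fold change 0.18, edgeR adjusted P = 9.1e-04 with n = 3 libraries a group). Nsd2, another lysine 36 methyltransferase, rose from 110 ± 3.00 to 120 ± 1.06 CPM (log2 fold change 0.13, edgeR adjusted P = 0.0222). Neither reached a fold change of 1.5.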
